A study of Homo sapiens with 3 samples.

Results

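The genes described here are 10 regulators of epithelial-mesenchymal transition (EMT): the transcription factors SNAI1, SNAI2, TWIST1, ZEB1 and ZEB2, which drive it, the epithelial transcription factors GRHL2, OVOL1 and ELF3, and the epithelial splicing regulators ESRP1 and ESRP2. They were chosen by name, and a probe set was taken where the array annotation gave it 1 gene symbol and that symbol was one of these. This found 20 of the 54675 probe sets on the array, for 9 of the 10 genes (of 19775 genes in all). The sole probe set that carries the symbol ESRP2 also carries a second symbol, so ESRP2 has no value here. ZEB2 has 5 probe sets, ZEB1 has 4, ELF3 has 3, OVOL1 and ESRP1 have 2 each, and the others have 1.

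The study asked which genes change in SKOV-3 cells, a human ovarian cancer cell line, when G9a is depleted. G9a is the histone methyltransferase that places dimethylation on lysine 9 of histone H3, a mark of silenced genes, and it is encoded by EHMT2. The cells carried a lentiviral shRNA, either G9a shRNA1, G9a shRNA2 or, as the control, Luc shRNA against luciferase, and puromycin was used to select the transduced cells. Each condition was measured on 1 array (3 arrays in all), so no condition has a spread between replicates, fold changes stand without a test, and both G9a shRNAs are set against the same control array. All 3 lines derive from SKOV-3 alone, and whether each was a pool or a clone is not given in the sources used here. In a bulk lysate, fewer cells with a transcript and less of that transcript in each cell cannot be told apart.

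EMT is the programme by which epithelial cells give up their junctions and become motile. SNAI, ZEB and TWIST factors bind E-box words in the promoters of epithelial genes such as CDH1, which encodes E-cadherin, and SNAI1 is known to bring G9a to the CDH1 promoter in breast cancer cells. GRHL2 and OVOL proteins act the other way and keep epithelial genes on, while ESRP1 and ESRP2 bind RNA and select the epithelial exons of transcripts such as those of FGFR2 and CD44.

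Values are given as MAS5 signals, which are linear, and a log2 ratio compares a G9a shRNA array with the Luc shRNA array. The filter kept the 30446 probe sets whose highest signal was at least 11.96, which is the median over all values of the 3 arrays. A second level, at the 75th percentile of 89.7, was reached by 14682 of them. The log2 difference between the G9a shRNA arrays had an SD of 0.25 in probe sets at or above the second level. In those between the levels it was 0.86. This spread holds differences between the shRNAs as well as measurement error. It holds no error of the single Luc shRNA array, so it does not measure how far a ratio over that array can stray. EHMT2 gave 29.7 with G9a shRNA1 and 79.2 with G9a shRNA2, against 182 with Luc shRNA, at its brightest probe set. A second EHMT2 probe set gave 23.9 and 16.4, against 27.6, and the one left was under the filter. The arrays had median signals of 12.3, 11.8 and 11.7 in the same order, and without the highest and lowest 2% of values their means were 105, 115 and 106. The control probe sets for β-actin had 3′ to 5′ ratios of 1.83 (G9a shRNA1) and 1.47 (G9a shRNA2), against 3.68 with Luc shRNA, while that of GAPDH lay between 1.12 and 1.15. The part of this difference in the results was not tested.

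SNAI2 and ESRP1 were the members past 2-fold higher with both G9a shRNAs, and no member was past 2-fold lower with both. Of the 20 member probe sets, 11 passed the filter, from 6 genes, and 5 of them reached the second level. With both shRNAs, 2 of the 11 were past 2-fold higher, against 3.32% of all probe sets past the filter, and 0 were past 2-fold lower, against 1.79%. Where 1 shRNA sufficed for the 2-fold and the other needed only the same sign, 3 were higher, against 7.17%, and 0 were lower, against 6.14%. All 3 belong to SNAI2 and ESRP1. So few probe sets, some of them of 1 gene, do not set these genes apart from the rest of the array. The other 9 probe sets did not pass, among them all those of SNAI1, ZEB2 and GRHL2, and they are given by their signals alone.

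**Figure D1:**
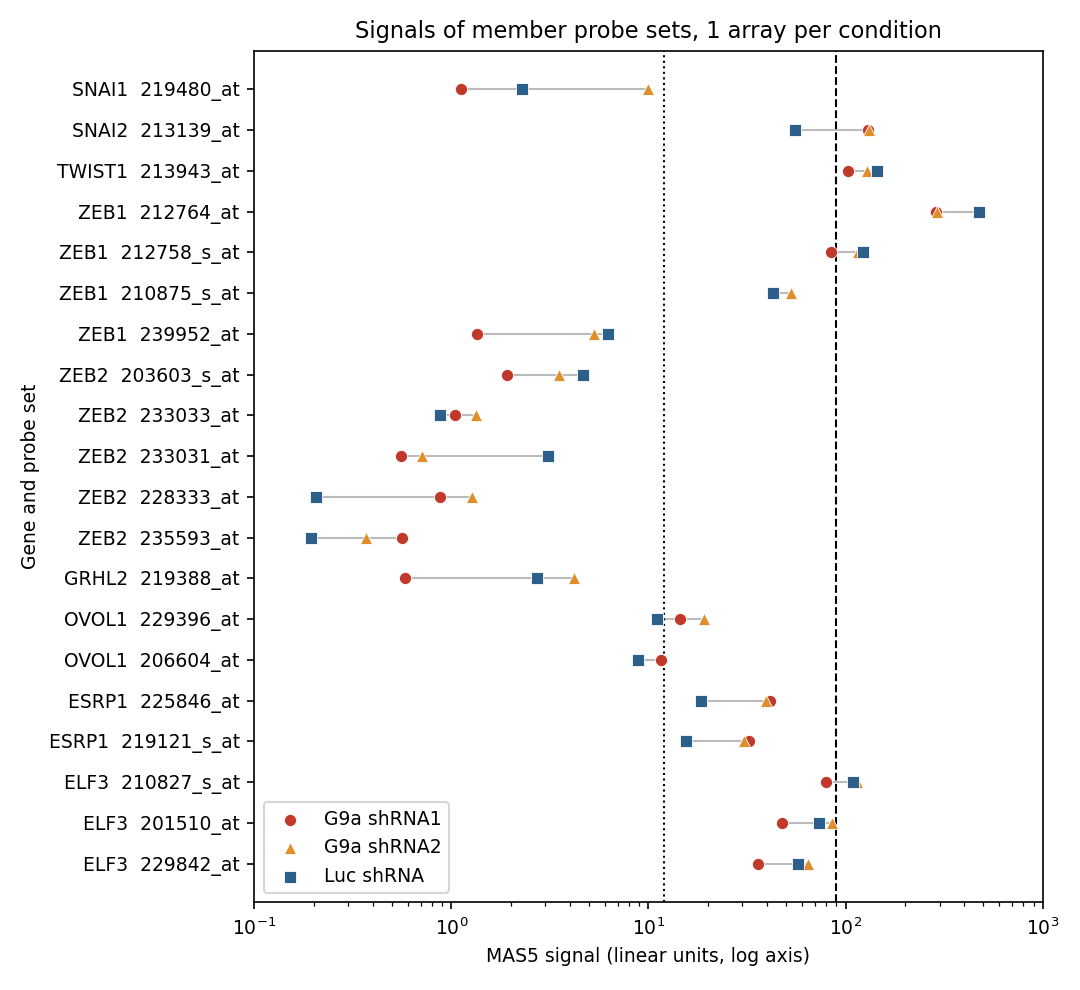
MAS5 signal (x axis, log scale) of the 20 member probe sets (rows), with 1 point per array for G9a shRNA1 (circles), G9a shRNA2 (triangles) and Luc shRNA (squares). The dotted line marks the filter at 11.96 and the dashed line the 75th percentile at 89.7. SNAI2 and ESRP1 have both G9a shRNA arrays to the right of Luc shRNA, the brightest ZEB1 probe set has both to its left, and SNAI1, ZEB2 and GRHL2 lie left of the filter on all arrays.

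Among the SNAI factors, SNAI2 was higher with both shRNAs. SNAI2 encodes Slug, a zinc finger repressor of CDH1. Its probe set read 130 with G9a shRNA1 and 132 with G9a shRNA2, against 55.6 with Luc shRNA. Both G9a shRNA arrays lay above the control and close to each other. The log2 ratios were 1.22 and 1.25, or 2.33-fold and 2.38-fold higher, and they differed from each other by -0.03, well within the SD of 0.25 at that signal level. At or above the second level, 0.654% of probe sets were past 2-fold higher with both, and SNAI2 was the 1 of 5 member probe sets there that was. It reached that level only through the G9a shRNA arrays, since its Luc shRNA signal of 55.6 was under 89.7, so it had to differ and this count carries no weight. SNAI1 encodes Snail, the related repressor. Its probe set read 1.12 with G9a shRNA1 and 9.91 with G9a shRNA2, against 2.30 with Luc shRNA. All 3 signals were under the filter, and the G9a shRNA arrays lay on either side of the control, so no fold change is given.

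TWIST1, a basic helix-loop-helix factor of the mesoderm, was lower with both shRNAs but not past 2-fold. It read 103 with G9a shRNA1 and 128 with G9a shRNA2, against 145 with Luc shRNA. The log2 ratios of -0.48 and -0.18 differed from each other by -0.31, more than the SD of 0.25 between the G9a shRNA arrays, and the second was smaller than that SD.

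ZEB1, a zinc finger and homeodomain repressor, had its brightest probe set lower with both G9a shRNAs. That probe set read 286 with G9a shRNA1 and 291 with G9a shRNA2, against 473 with Luc shRNA. The log2 ratios were -0.72 and -0.70, which is 1.65-fold and 1.62-fold lower and not past 2-fold. The G9a shRNA arrays lay together, and the distance to the control was larger than the SD of 0.25 between them. That SD holds no error of the Luc shRNA array, so the comparison is no test of the lower level. The next ZEB1 probe set read 84.8 and 116, against 122, with log2 ratios of -0.53 and -0.08. The third read 42.9 and 52.8, against 42.7, so it did not repeat the lower values, with log2 ratios of 0.00 and 0.31. The ratio of the third with G9a shRNA1 fell just under 0 after median centring or quantile normalization. The fourth ZEB1 probe set was under the filter, at 1.35 and 5.32, against 6.22. The lower level of ZEB1 therefore rests on its brighter probe sets, and with G9a shRNA2 on the brightest alone.

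ZEB2, the paralog of ZEB1, was under the filter on all 3 arrays at each of its 5 probe sets. The brightest read 1.92 with G9a shRNA1 and 3.53 with G9a shRNA2, against 4.67 with Luc shRNA. Across the 5 probe sets, the signals ran from 0.371 to 3.53 with the G9a shRNAs and from 0.195 to 4.67 with Luc shRNA. Of these probe sets, 3 had both G9a shRNA arrays above the control and 2 had both below it, all at signals under the filter.

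The sequence in front of ZEB1 is shown because ZEB1, SNAI and TWIST proteins bind E-boxes and because ZEB1 has the brightest of the factors' probe sets that were lower with both shRNAs. The RefSeq table used here (build GRCh38.p14) gives windows from 250 bases before to 50 after a start site. Member windows on the chromosome of SNAI2, ESRP1 and GRHL2 were left out, so none is shown for these. Of the other members, 3 had windows: ZEB1 with 7 start sites, ZEB2 with 1 and ELF3 with 1. The word searched was CAGGTG, or CACCTG on the other strand, which cannot overlap itself. It was present in 3 of these 9 windows, 2 of ZEB1 and the 1 of ELF3. Of all 35116 windows of the same length, where no chromosome was left out, 20.6% held it. The GC content of the 9 windows had a median of 59.0%, against 58.7% over all windows. The ZEB1 window with the most matches, at chr10:31318966-31319265 on the plus strand, follows with each word in capitals, and its words begin 242 and 85 bases before the start site and at base 34 after it.

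ZEB1: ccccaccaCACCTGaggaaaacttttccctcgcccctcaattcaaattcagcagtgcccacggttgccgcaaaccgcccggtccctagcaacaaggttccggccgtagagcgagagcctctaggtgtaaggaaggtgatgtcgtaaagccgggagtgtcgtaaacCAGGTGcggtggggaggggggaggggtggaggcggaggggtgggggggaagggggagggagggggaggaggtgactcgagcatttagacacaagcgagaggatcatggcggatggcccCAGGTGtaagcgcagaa

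The match is a description of the letters, and no binding was measured on these arrays. The ELF3 window, at chr1:202010337-202010636 on the plus strand, holds 1 word that begins 120 bases before the start site. It is shown as the sole window of an epithelial factor among those kept, which leave out the chromosome of GRHL2.

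ELF3: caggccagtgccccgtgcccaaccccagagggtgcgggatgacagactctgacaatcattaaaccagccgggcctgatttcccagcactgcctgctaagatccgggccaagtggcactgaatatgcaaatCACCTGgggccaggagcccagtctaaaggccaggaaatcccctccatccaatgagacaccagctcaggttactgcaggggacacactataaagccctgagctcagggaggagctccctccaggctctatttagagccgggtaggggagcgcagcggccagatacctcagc

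The epithelial transcription factors did not move together. ELF3, an ETS family factor of epithelial cells, gave 79.8 with G9a shRNA1 and 114 with G9a shRNA2, against 110 with Luc shRNA, at its brightest probe set. The other ELF3 probe sets gave 47.7 and 85.8, against 73.0, and 36.2 and 64.7, against 57.1. At all 3 probe sets G9a shRNA1 was below the control and G9a shRNA2 was above it. The log2 ratios ran from -0.66 to -0.46 with G9a shRNA1 and from 0.06 to 0.23 with G9a shRNA2. After quantile normalization the G9a shRNA2 ratio of the brightest turned to -0.09. The shRNAs gave no common direction for ELF3.

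OVOL1, a zinc finger repressor that opposes EMT, read 14.4 with G9a shRNA1 and 19.2 with G9a shRNA2, against 11.1 with Luc shRNA, at the brighter of its probe sets. The log2 ratios were 0.38 and 0.79, neither past 2-fold, and both smaller than the SD of 0.86 at that signal level. This probe set passed the filter only through the G9a shRNA arrays, since its Luc shRNA signal was under 11.96. The dimmer OVOL1 probe set read 11.6 and 8.93, against 8.83, under the filter. GRHL2, a grainyhead-like activator of CDH1 and ESRP1, read 0.580 with G9a shRNA1 and 4.19 with G9a shRNA2, against 2.73 with Luc shRNA. These signals were also under the filter, with the G9a shRNA arrays on either side of the control.

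ESRP1, the epithelial splicing regulator, was higher with both shRNAs at both of its probe sets. The brighter read 41.2 with G9a shRNA1 and 39.6 with G9a shRNA2, against 18.5 with Luc shRNA. Its log2 ratios were 1.15 and 1.09, or 2.22-fold and 2.14-fold. The dimmer read 32.3 and 30.5, against 15.6, with log2 ratios of 1.05 and 0.97. The second ratio is just inside 2-fold. Both probe sets had the G9a shRNA arrays close together and above the control, with differences between the shRNAs of 0.06 and 0.09. All ESRP1 signals lay between the filter and the second level, where the SD between the G9a shRNA arrays was 0.86 over all probe sets. After quantile normalization the brighter probe set gave 1.12 and 0.97, past 2-fold with G9a shRNA1 alone. After median centring the dimmer gave 0.98 and 0.95, past 2-fold with neither.

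**Figure D2:**
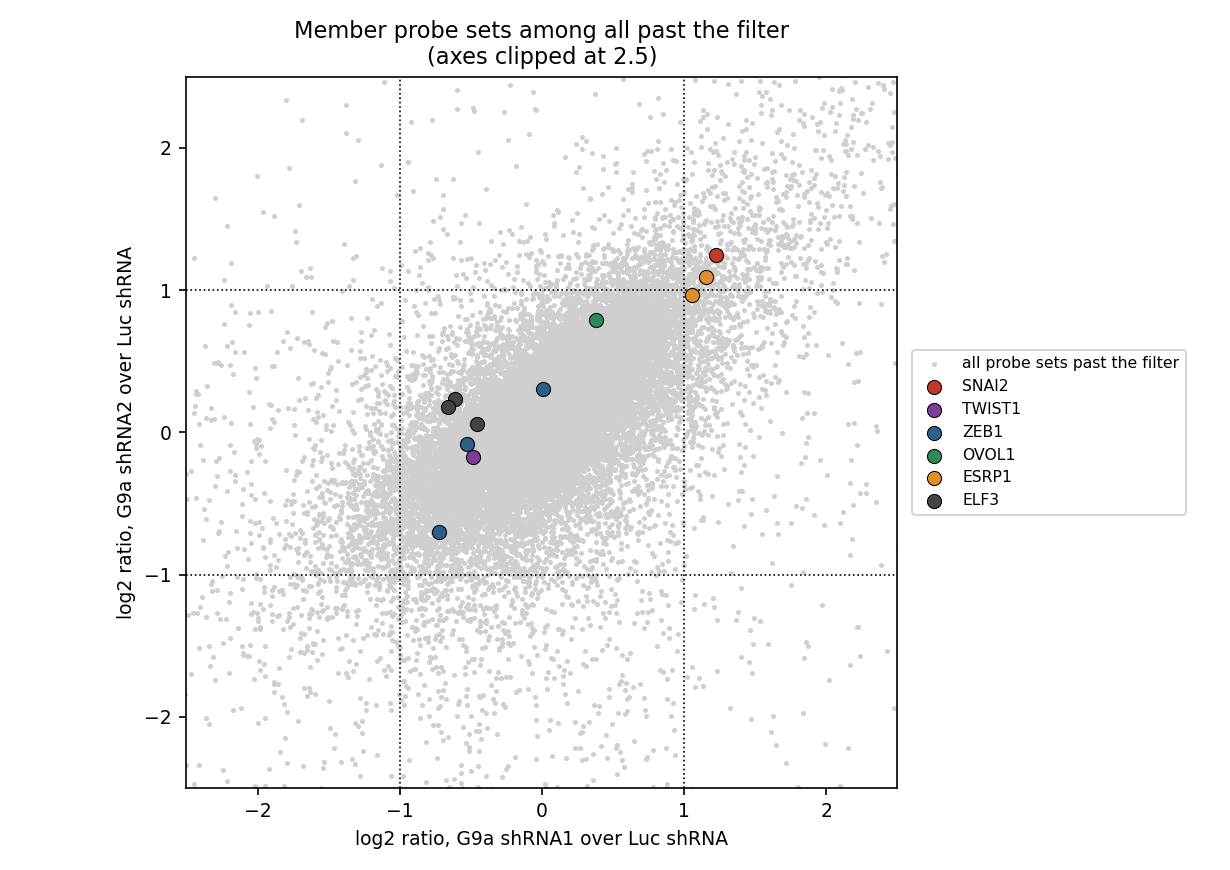
Log2 ratios over Luc shRNA, those of G9a shRNA1 along the x axis and those of G9a shRNA2 along the y axis, for the 11 member probe sets past the filter (coloured) and for all 30446 (grey), with dotted lines at 2-fold. Both axes share the control array, and grey points beyond the axes are not drawn. SNAI2 and the brighter ESRP1 probe set lie past both lines, the 3 ELF3 probe sets lie left of 0 and above it, and no member lies past 2-fold at the lower left.

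The members thus held a factor of the mesenchymal side, SNAI2, and a regulator of the epithelial side, ESRP1, higher by similar amounts, while ZEB1 was lower at its brightest probe set. Over the 9 genes at their brightest probe sets, the median of the mean log2 ratio was -0.20, against 0.04 over all 19775 genes. It was -0.48 with G9a shRNA1 and 0.62 with G9a shRNA2, against 0.02 and 0.09 over all genes. The G9a shRNA2 value is the ratio of GRHL2, whose signals were under the filter, so this median describes no common direction.

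By scaling, the members kept their sides with the exceptions named for ZEB1 and ELF3. As deposited, the log2 ratios of probe sets at or above the second level had medians of 0.01 (G9a shRNA1) and 0.13 (G9a shRNA2). After quantile normalization, which brought them to 0.02 and 0.01, SNAI2 gave 1.20 and 1.09, and the brightest ZEB1 probe set gave -0.72 and -0.83. Both stayed on the side they had as deposited.

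**Figure D3:**
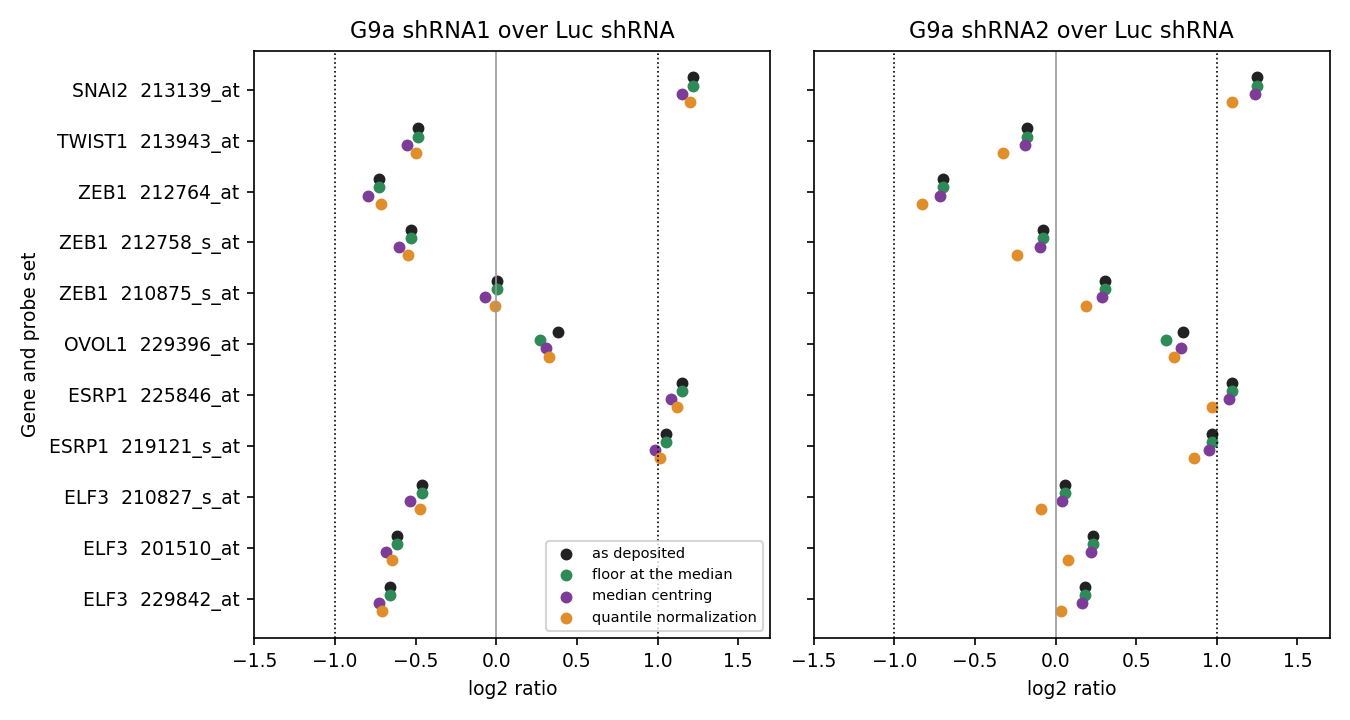
Log2 ratio over Luc shRNA (x axis) of the 11 member probe sets past the filter (rows), with G9a shRNA1 (left panel) and G9a shRNA2 (right panel), under 4 treatments of the signals (colours). Dotted lines mark 2-fold. SNAI2 stays past 2-fold in both panels under all 4, and the brighter ESRP1 probe set drops to 0.97 with G9a shRNA2 after quantile normalization.

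The gene nearest to SNAI2 in its pair of log2 ratios was FOXQ1, a forkhead factor also tied to EMT. It read 230 with G9a shRNA1 and 237 with G9a shRNA2, against 101 with Luc shRNA, and lay at a distance of 0.03 in log2 units. CCNE1, which encodes cyclin E1, and MAP7, a microtubule-binding protein, followed at 0.04 and 0.09. The search covered 8347 genes at or above the second level, and a likeness over 2 ratios from 3 arrays is a weak one.

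Other regulators of EMT lay on both sides of the control. In this and the following lists each gene is counted at its brightest probe set, and dimmer ones can differ from it. Of 17 other EMT transcription factors, 15 were measured and 9 passed the filter. Among the 9, 1 was past 2-fold higher with both shRNAs (FOXQ1) and 0 were lower, against 2.57% and 1.66% of all 13192 genes past the filter. SOX9, a factor that can act with SNAI2, read 51.7 and 47.2, against 24.7 with Luc shRNA, with log2 ratios of 1.06 and 0.94. PRRX2 and TBXT were past 2-fold lower with 1 shRNA each, PRRX2 with G9a shRNA1 (5.12) and TBXT with G9a shRNA2 (3.15), at signals under the filter there. The ID proteins bind basic helix-loop-helix factors and keep them from DNA, and 0 of the 4 were past 2-fold with both at their brightest probe sets. ID3 gave 0.42 and 0.42, and ID4 gave -0.72 and -0.41. A dim ID4 probe set gave -1.07 and -1.04.

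Of 16 other epithelial transcription factors, 13 were measured and 9 passed the filter, with 0 past 2-fold higher and 1 past 2-fold lower with both. The gene was FOXA2, a forkhead factor of endoderm, at 1.26 and 11.3, against 25.9, so that both G9a shRNA signals were under the filter. KLF4, a factor that activates CDH1, read 565 with G9a shRNA1 and 554 with G9a shRNA2, against 307 with Luc shRNA, with log2 ratios of 0.88 and 0.85. A dimmer KLF4 probe set gave 1.54 and 1.14. TFAP2C, an AP-2 factor, gave 1.42 and 0.86.

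Among the other splicing regulators past the filter, none was past 2-fold at its brightest probe set. Of 18 other splicing regulators tied to EMT, 14 passed the filter, and 0 were past 2-fold with both shRNAs in either direction or with 1. QKI, an RNA-binding protein that rises in EMT, gave -0.25 and -0.23 at its brightest probe set, and others of its probe sets gave ratios above 0. PTBP2, a polypyrimidine tract binder, gave 0.63 and 0.34. CELF2, an RNA-binding protein, gave -0.64 and -0.14 at its brightest probe set. Its dimmest read 9.63 and 10.4, against 24.9, with log2 ratios of -1.37 and -1.26. Both G9a shRNA signals of that probe set were under the filter, which it passed only through Luc shRNA. Of 13 genes whose transcripts the ESRP proteins splice, 11 were measured and all passed, with 0 past 2-fold with both. FGFR2, a receptor for fibroblast growth factors, read 94.0 with G9a shRNA1 and 139 with G9a shRNA2, against 212 with Luc shRNA, with log2 ratios of -1.17 and -0.60. A second FGFR2 probe set gave -1.23 and -0.43, whereas 2 dim ones were above the control with G9a shRNA2. CD44, the hyaluronan receptor, gave -0.42 and -0.30 at its brightest probe set, and its next gave -0.29 and 0.03. Of the 10 CD44 probe sets past the filter, 4 were above the control with both shRNAs, 2 were below it with both and 4 were on opposite sides. These signals sum over isoforms, and exon choice was not measured.

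Epithelial genes, among them known targets of SNAI and ZEB repression, were mostly above the control. All 28 were measured and 24 passed the filter. Of the 24, 19 were higher with both shRNAs at any size, 1 was lower and 4 were on opposite sides, whereas of all genes past the filter 44.0% were higher and 30.8% lower with both. Past 2-fold with both were 3 higher and 1 lower, against 2.57% and 1.66% of all genes. The list median was 0.41, against 0.04 over all genes. SPINT1, a serine protease inhibitor of epithelia, read 157 with G9a shRNA1 and 131 with G9a shRNA2, against 42.7 with Luc shRNA, but its second probe set read 30.9 and 30.3, against 30.6. KRT19, a keratin of simple epithelia, read 49.9 and 48.2, against 13.4, with log2 ratios of 1.90 and 1.84. MARVELD3, a tight junction protein, read 59.1 and 39.4, against 16.8, with log2 ratios of 1.82 and 1.23. The signals of both lay between the filter and the second level, and that of KRT19 with Luc shRNA was just over the filter. CDH1, the E-cadherin gene, read 520 with G9a shRNA1 and 727 with G9a shRNA2, against 391 with Luc shRNA, with log2 ratios of 0.41 and 0.89. CLDN7, a claudin, was lower, at 2.22 and 2.71, against 15.4 with Luc shRNA, where the G9a shRNA signals were under the filter. Earlier results of these data had shown some epithelial genes higher, so this count is no independent support.

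Of 22 mesenchymal genes, 21 were measured and 17 passed the filter. Of the 17, 10 were lower with both shRNAs at any size, 5 were higher and 2 were on opposite sides, against 30.8% lower and 44.0% higher among all genes past the filter. Past 2-fold with both were 1 higher and 2 lower, against 2.57% and 1.66%. The lower ones were the fibrillar collagens COL5A1 and COL1A1, at -2.62 and -1.79, and at -1.86 and -1.77. Both genes have dimmer probe sets that were below the control too. TAGLN, an actin-binding protein of smooth muscle, was the higher one, at 1.68 and 1.13. A second TAGLN probe set gave 1.35 and 1.40. A dim one was below the control and passed the filter only through Luc shRNA. CDH2, which encodes N-cadherin, gave -0.39 and -0.50 and VIM, vimentin, gave -0.26 and -0.09. CDH1, CDH2 and VIM were named after the values were known. The list median was -0.09.

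Partners and inducers of the factors were mostly inside 2-fold. Of 17 corepressors and chromatin enzymes that SNAI or ZEB factors recruit, all passed the filter, and EHMT2 was the only one past 2-fold with both. KDM1A, the demethylase LSD1 that SNAI1 binds, gave 0.30 and 0.59. Of 14 genes that set the stability of the SNAI1 protein, 13 were measured and passed. PRKD1, a kinase that phosphorylates SNAI1, was the 1 past 2-fold lower with both, at 8.86 and 13.2, against 32.3 with Luc shRNA. Its G9a shRNA1 signal was under the filter and its G9a shRNA2 signal just over it. LOXL2, a lysyl oxidase that can stabilise SNAI1, gave -0.84 and -0.54. Of 18 inducers, all passed, with 1 past 2-fold higher with both and 0 lower. That gene was IL6, a cytokine, at 139 and 93.5, against 32.6. EGFR, a growth factor receptor, had log2 ratios of -0.64 and -0.54 where it was brightest, while another probe set gave -0.02 and 0.13. A dim EGFR probe set read 14.2 and 23.2, against 6.00, with log2 ratios of 1.24 and 1.95. Of its 6 probe sets past the filter, 2 were above the control with both shRNAs, 2 were below it with both and 2 were on opposite sides. The 2 above it had Luc shRNA signals of 6.00 and 7.09, so they passed the filter only through the G9a shRNA arrays. Of 11 measured housekeeping genes, 0 were past 2-fold at the brightest probe set, and their median was 0.01. The 5′ control probe set of β-actin gave 1.07 and 1.54.

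Markers of epithelial ovarian cancer cells mostly passed the filter, as did most of mesothelium and fibroblasts, while those of endothelium and leukocytes mostly did not. The filter is the median of all values, so passing it is no call of presence. Of 10 epithelial markers, 9 passed the filter and MUC16 did not, and their signals summed to 7364 (G9a shRNA1) and 8336 (G9a shRNA2), against 5603 with Luc shRNA. KRT18, EPCAM and KRT8 made most of each sum. These, KRT19, MUC1 and CLDN3 are also among the epithelial genes above, so the higher sums are no separate result. Of 5 mesothelial markers 4 passed, with sums of 158 and 169, against 161. Of 7 fibroblast markers 4 passed, with sums of 119 and 127, against 261, and COL1A1 made most of the Luc shRNA sum. Of 4 endothelial markers 1 passed, and the sums over all 4 were 35.3 and 42.8, against 26.4. Of 4 measured leukocyte markers 0 passed. The part of these marker levels in the results for SNAI2 and ESRP1 was not tested.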

How the data were processed

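Each of the 3 arrays held total RNA of 1 SKOV-3 line. The deposited values are probe set intensities on a linear scale that the authors made with MAS5, as the submitters' processing notes name it. Its version, settings and scaling target are not given in the sources used here. No value was at or under 0, and precision is limited by the 3 arrays.

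The intensities were used as deposited. Gene symbols came from the platform annotation, updated through its Entrez IDs: 41097 probe sets had 1 symbol, 1801 several and 11777 none, and 54 probe sets kept their older symbol because the gene table (GRCh38.p14) held no match. For a gene with several probe sets, the one of highest average log2 signal (the brightest) stands for it. A change was called past 2-fold, the threshold the study used, with no test. The study described its genes as changed with either shRNA, whereas the main count here asked for both, among probe sets past the filter. Members, 16 further lists and all settings were chosen with earlier results of these data known. Named are all members, EHMT2, up to 4 genes of a list with the largest smaller change among those on the same side with both shRNAs, and the 3 genes nearest to SNAI2. CDH1, CDH2 and VIM were added with their values in view.

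Other settings tried were 3 filters (none, at the 75th percentile, on the mean signal), low signals raised to the median, quantile normalization, median centring, thresholds of 1.5-fold and 3-fold, averaging of probe sets, single shRNAs, and a fit by limma 3.58.1 (R 4.3.3). Calculations used Python 3.11.15, numpy 2.4.6 and pandas 2.3.3. The fold rule was tested on simulated data. How far it holds at the signals and ratios of SNAI2 and ESRP1 was not tested.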

Additional observations from a re-analysis of the deposited data

Results flagged for a closer look

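ELF3 lay on opposite sides of the Luc shRNA array with the 2 G9a shRNAs at all 3 of its probe sets. The log2 difference, G9a shRNA1 minus G9a shRNA2, was -0.52 at the brightest, -0.85 at the next and -0.84 at the dimmest. With 1 array per shRNA this difference was not tested, and the 3 probe sets read the same RNA, so they are not replicates.

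A probe set outside the comparisons was above the control. Its annotation holds 2 symbols, MIR6773 and ESRP2, so no gene was named from it. It read 264 with G9a shRNA1 and 270.0 with G9a shRNA2, against 142 with Luc shRNA, with log2 ratios of 0.90 and 0.93 and a mean of 0.91.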

How the results depend on the processing

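The count of member probe sets past 2-fold with both shRNAs was 2, all higher. It became 4 with no filter and 4 at 1.5-fold, each with 3 higher and 1 lower. It became 1 with the filter at the 75th percentile, 1 after quantile normalization and 0 at 3-fold. The 1 left at the 75th percentile is SNAI2, which passed that filter only through the G9a shRNA arrays. With at least 1 shRNA, the count was 3, all higher. It became 8 with no filter (5 higher, 3 lower) and 5 at 1.5-fold (4 higher, 1 lower). It became 1 with the filter at the 75th percentile and 0 at 3-fold. The other settings left both counts within 1.5 times: a filter on the mean, the floor, median centring and, chosen after seeing the data, each shRNA alone. In limma, which treated G9a shRNA1 and G9a shRNA2 as 1 group and took the spread of the single Luc shRNA array to equal theirs, 0 member probe sets passed an adjusted p of 0.05 and 4 of 11 an unadjusted one, against 0 and 2915 of all 30446. The median over member genes (-0.20) was 0.00 with the floor, 0.18 with the mean over all probe sets, -0.48 for G9a shRNA1 and 0.62 for G9a shRNA2. Of 36 values of single members under 6 settings, 34 moved by less than the SD between the G9a shRNA arrays, and the other 2 are those of ELF3 with each shRNA alone. Some could not move, since SNAI2 and TWIST1 have 1 probe set each and the floor leaves bright signals as they are. For OVOL1 and ESRP1 that SD was 0.86, so the count of 34 carries little weight. No paired analysis was possible because each condition has 1 array. Near the background, 49.7% of probe sets under the median were past 2-fold apart from 1 G9a shRNA to the other, which limits SNAI1, ZEB2 and GRHL2.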
